A study of Mus musculus with 2 samples.

Results

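Actin capping protein and the proteins that bind it directly were followed through the nuclei of the mouse hippocampus. The 10 genes, of 32285 measured, were taken by name. They are the subunit genes Capza1, Capza2 and Capzb, the CARMIL genes Carmil1 and Carmil3, the adaptor genes Cd2ap and Sh3kbp1, the myotrophin gene Mtpn, and the twinfilin genes Twf1 and Twf2. Nuclear RNA was read in 2 single-nucleus libraries of hippocampus, 1 from CAPZA2+/- mice (heterozygous knockout) and 1 from wild-type mice, each in the 10x Genomics 3' v3 format, in which a tag near the end of a transcript carries a unique molecular identifier (UMI). Age, sex, strain background, the number of animals in a library and the deleted part of the gene are not given in the sources used here. In the nuclei kept, Xist held 56 UMIs in the heterozygote and 32 in the wild type, and Y-linked genes together 31627 and 27751. With 1 library per genotype nothing below has a replicate check, and every interval is at 95% and covers counting error only.

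Capping protein is a heterodimer of an alpha and a beta subunit that sits on the fast-growing barbed end of an actin filament and stops subunits from joining or leaving there. CARMIL proteins, CD2AP and its relative CIN85 (the product of Sh3kbp1) share a capping protein interaction motif, through which they bind capping protein and, for CARMILs, loosen it from the filament end. Myotrophin, also called V-1, binds the free dimer and keeps it off filaments, and twinfilins bind actin at barbed ends and the capping protein itself. In neurons these proteins act on the branched actin of growth cones and dendritic spines, and in microglia and oligodendrocytes on the actin of moving processes.

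The regions before the gene starts were compared first, because Capza2 is the gene altered in these mice and its partner genes are described beside it. Of the 10 genes, 8 had a RefSeq start in the GRCm38.p6 table used. The 250 bases upstream of each start were searched on both strands for an NRF1-type palindrome, whose matches are the capitals in the Capza2 stretch printed here, and for shorter motifs. The GC box searched was GGGCGG, held by 32.7% of all windows of this length in the table. The CCAAT box, searched by the letters of its name, was held by 33.8%. The TATA box searched was TATAAA, held by 12.4%. Capza2 held 3 NRF1-type matches, Mtpn held 1 and the other 6 genes none. Of 32817 such windows 3.73% held at least 1 match and 0.0701% held 3 or more. The stretch upstream of this Capza2 start that lies outside annotated exons (chr6:17636760-17636982, plus strand) held 2 of its 3 matches, shown in capitals. It is intronic to a longer GENCODE transcript of Capza2 that begins further upstream. In the Mtpn window (chr6:35539889-35540138, minus strand), which lies outside annotated exons, capitals mark the NRF1-type match near the end, GC boxes before and after it, and a CCAAT match that adjoins the first GC box.
Capza2: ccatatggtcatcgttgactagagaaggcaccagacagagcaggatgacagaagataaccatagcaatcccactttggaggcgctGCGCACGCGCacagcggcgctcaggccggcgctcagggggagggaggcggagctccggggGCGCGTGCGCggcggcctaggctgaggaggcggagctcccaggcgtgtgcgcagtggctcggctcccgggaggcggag
Mtpn: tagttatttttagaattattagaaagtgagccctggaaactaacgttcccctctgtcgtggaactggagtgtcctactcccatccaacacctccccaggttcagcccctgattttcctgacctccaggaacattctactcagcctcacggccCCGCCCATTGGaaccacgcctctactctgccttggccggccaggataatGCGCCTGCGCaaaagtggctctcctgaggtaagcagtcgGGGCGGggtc
The motifs were chosen after these sequences had been seen, and a match is a run of letters, not a shown binding site.

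Capza2 (ENSMUSG00000015733, chromosome 6, 17636234 to 17666972, plus strand) was counted in both libraries, with 3759 UMIs in the heterozygote and 4611 in the wild type. As CPM, the count scaled to a total of 1000000 UMIs, that made 67.5 and 86.0. Its counted tags cannot check the allele, since the position of the deletion is not known here. The libraries held 7801 and 6512 barcodes, and 6795 heterozygote and 6094 wild-type nuclei were kept, with medians of 5770 and 6658.5 UMIs. The libraries shared 13 barcodes. Nuclei were sorted into classes by marker genes, and the 8 classes that reached 200 nuclei per library were compared. They are dentate granule-like, CA1 pyramidal-like, CA3 pyramidal-like, inhibitory neuron-like, oligodendrocyte-like, astrocyte-like and microglia-like nuclei, and excitatory nuclei with subicular, entorhinal or cortical markers, called the subicular class here. Every listed marker of these 8 classes was found in its own class in both libraries. Depth differed widely between them, from medians of 1460.5 and 1465 UMIs per nucleus in microglia-like to 16834 and 13388 in CA3 pyramidal-like nuclei (heterozygote first here and below). Cluster 14, left without a type because its nuclei were shallow, held 232 and 41 nuclei. Its leading genes were Hbb-bs, a hemoglobin gene, and Ttr, a choroid plexus gene. All 6 general excitatory markers were detected in it, with a mean log2 ratio of 1.18 over the other clusters. Mitochondrial UMIs stood there at 0.507% and 0.569%, against 0.0572% and 0.0905% over all nuclei. Its medians were 669 and 793 UMIs per nucleus, and its levels are given below beside those of the classes.

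The capping protein subunits took their largest share of RNA in microglia-like nuclei. Capza1, an alpha subunit gene, stood there at 175 CPM (141 to 216) and 169 CPM (130 to 215), against 50.6 to 74.6 CPM in the 7 other heterozygote classes and 47.8 to 81.0 in the wild type. Capza2, the other alpha subunit gene, was at 347 (297 to 402) and 379 CPM (320 to 447). Capzb, the gene of the beta subunit (chromosome 4, 139192899 to 139291818, plus strand), was at 159 (126 to 198) and 206 CPM (162 to 257). For all 3 genes the microglia-like interval lay above that of every other class compared, in both libraries.

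Below microglia the subunits followed somewhat different orders. Capza2 came next in oligodendrocyte-like nuclei, at 109 and 164 CPM, then astrocyte-like (99.8 and 124), dentate granule-like (76.1 and 106), CA1 pyramidal-like (57.2 and 77.0) and CA3 pyramidal-like nuclei (57.6 and 69.3). It was lowest in inhibitory neuron-like nuclei at 45.5 and 59.0 CPM. In that order dentate granule-like nuclei differed from the CA1 class beyond counting error in both libraries, while the neighbours from CA1 down to the inhibitory class overlapped in at least 1 library. Capza1 was nearly flat over neurons, from 50.6 to 60.5 CPM in the heterozygote and from 47.8 to 62.0 in the wild type, with overlapping neighbours throughout. Capzb ran from 52.9 and 54.7 CPM in dentate granule-like to 31.5 and 42.0 in inhibitory neuron-like nuclei. Its lowest wild-type level, 39.7 CPM in the subicular class, had an interval that overlapped the inhibitory one.

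**Figure D1:**
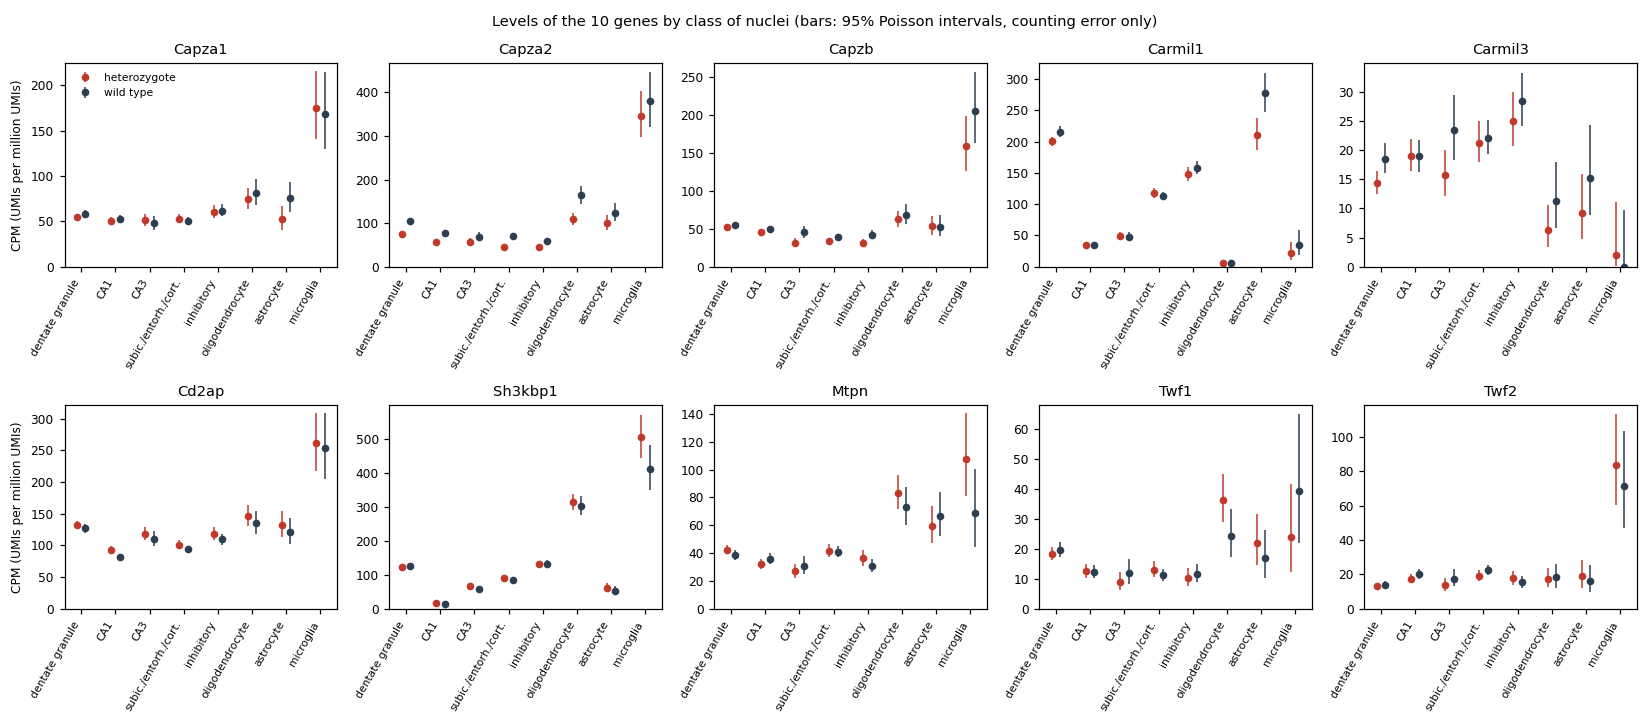
CPM of each of the 10 genes (1 panel each, linear axis from 0) in the 8 classes compared, heterozygote in red and wild type in dark blue, with exact Poisson intervals at 95%. Capza1, Capza2, Capzb, Cd2ap, Sh3kbp1 and Twf2 are highest in microglia-like nuclei in both libraries, Carmil1 in astrocyte-like and Carmil3 in inhibitory neuron-like nuclei.

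The order turns when molecules are counted per nucleus, because glial nuclei yielded few UMIs in all. Microglia-like nuclei held 53.4 and 60.8 Capza2 UMIs per 100 nuclei, and CA3 pyramidal-like nuclei 109 and 103, the highest of the 8 classes. For Capza1 the microglia-like class stood at 27.0 and 27.0 UMIs per 100 nuclei, against 96.8 in CA3 pyramidal-like nuclei of the heterozygote and 75.7 in inhibitory neuron-like nuclei of the wild type. Capzb was also highest in CA3 pyramidal-like nuclei, at 59.8 and 67.1. Oligodendrocyte-like nuclei were lowest for all 3 subunit genes, with 14.7 and 16.1 UMIs of Capza1 per 100 nuclei. So the glial excess is a share of the RNA captured, not more molecules per nucleus.

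**Figure D2:**
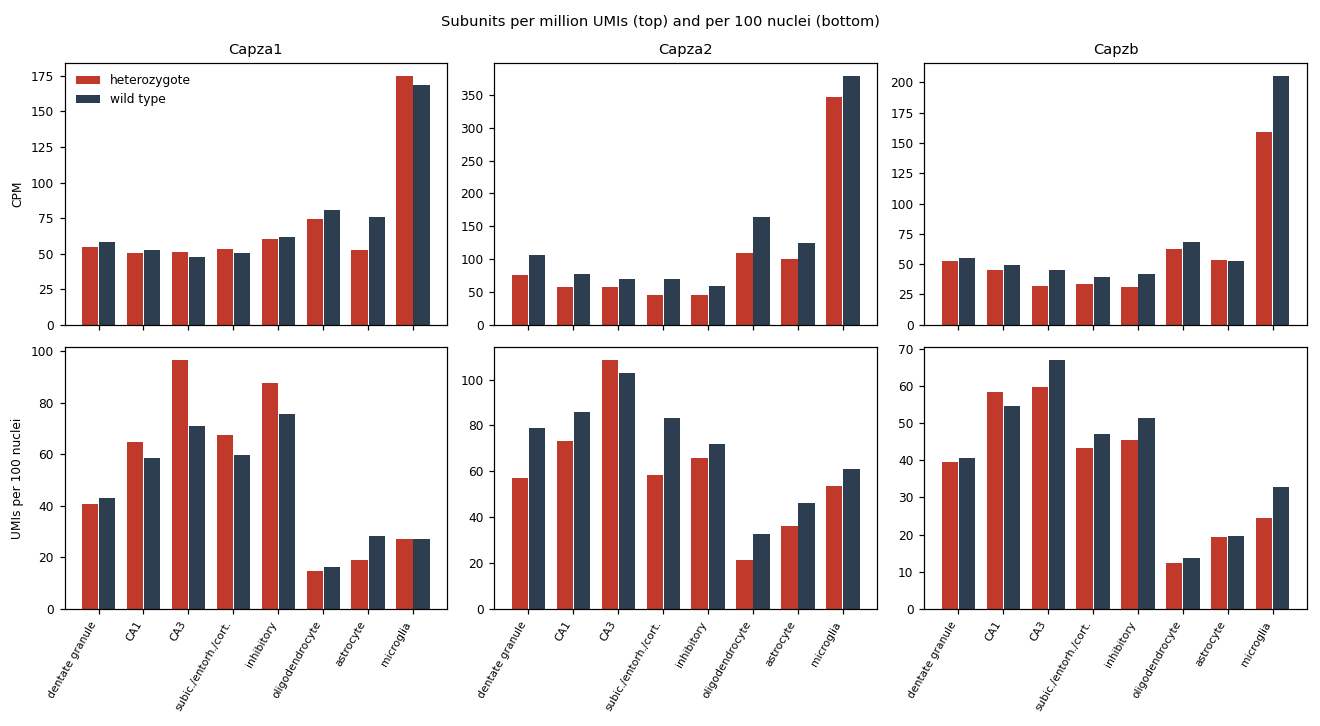
Capza1, Capza2 and Capzb by class, as CPM in the top row and as UMIs per 100 nuclei in the bottom row, with bars from 0 for each library. Microglia-like nuclei lead the top row, and for Capza2 stand at 53.4 and 60.8 UMIs per 100 nuclei in the bottom row, below CA3 pyramidal-like nuclei at 109 and 103.

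Capza2 was also high in the shallow nuclei of cluster 14. There it stood at 399 CPM (70 UMIs) and 355 CPM (12 UMIs), and Capzb at 182 and 207 CPM, whereas Capza1 had 5 and 0 UMIs (28.5 CPM, and at most 88.9 CPM by the limit of 3 counts that a count of 0 allows). General excitatory markers, 6 genes that glia should lack, were found in microglia-like nuclei at 31.5% and 31.3% of their cluster 14 level, in oligodendrocyte-like nuclei at 25.5% and 24.5%, and in astrocyte-like nuclei at 23.3% and 22.1%. Cluster 14's Capza2 scaled by those shares comes to 126 and 111 CPM in microglia-like nuclei, less than the 347 and 379 measured. In oligodendrocyte-like nuclei it comes to 102 and 87.1 CPM of 109 and 164 measured, and in astrocyte-like nuclei to 92.8 and 78.5 of 99.8 and 124.
With the 8 oligodendrocyte markers as the measure in neurons, the scaled Capza2 level was 76.2 and 95.3 CPM in dentate granule-like nuclei, close to the 76.1 and 106 measured. It was 50.0 and 37.8 CPM in inhibitory neuron-like nuclei against 45.5 and 59.0 measured, and 21.3 and 24.9 of 57.2 and 77.0 in CA1 pyramidal-like nuclei. For Mtpn in dentate granule-like nuclei the scaled level was 31.6 and 87.3 CPM beside 42.3 and 38.3 measured, so this measure can exceed the level found. The wild-type values rest on few cluster 14 UMIs, 12 for Capza2. The part of RNA from other nuclei in the class levels of Capza2, Capzb, Mtpn and Twf1 was not tested. For Sh3kbp1, Cd2ap and Capza1 the scaled levels were small, at 14.4, 12.6 and 8.99 CPM in heterozygote microglia-like nuclei, where 504, 261 and 175 were measured.

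The CARMIL genes were low in microglia-like and oligodendrocyte-like nuclei. Carmil1 (chromosome 13, 24012344 to 24280795, minus strand) codes for the widely expressed CARMIL. It was highest in astrocyte-like nuclei at 211 (187 to 237) and 278 CPM (248 to 310) and in dentate granule-like nuclei at 200 and 216 CPM. Inhibitory neuron-like nuclei followed at 148 and 159 CPM and the subicular class at 118 and 113. The pyramidal cells of the hippocampus proper held much less, 48.9 and 47.8 CPM in CA3 and 35.3 and 35.2 in CA1, as did microglia-like nuclei with 21.9 and 34.3. Oligodendrocyte-like nuclei held least, at 6.29 and 5.65 CPM (14 and 9 UMIs). Between the highest and the lowest class Carmil1 spanned 33.6-fold (19.7 to 62.2) in the heterozygote and 49.1-fold (25.5 to 108) in the wild type. The steps from dentate granule to inhibitory, to subicular, to CA3 and to CA1 each exceeded counting error in both libraries.

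Carmil3, the CARMIL gene known from neurons, was low throughout, and lowest in microglia-like and oligodendrocyte-like nuclei. It was at 25.0 and 28.4 CPM in inhibitory neuron-like nuclei and between 14.4 and 23.4 CPM in the excitatory classes. Astrocyte-like nuclei held 9.14 and 15.2 CPM and oligodendrocyte-like nuclei 6.29 and 11.3. The wild-type astrocyte-like interval, 8.84 to 24.3 CPM, overlapped those of the excitatory classes. Microglia-like nuclei held 1 UMI in the heterozygote and 0 in the wild type, where a count of 0 among 379481 UMIs allows up to 7.91 CPM. The neighbours in this order overlapped.

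Of the adaptor genes, Sh3kbp1 varied widely between classes and Cd2ap little. Sh3kbp1 (X chromosome, 159627272 to 159978069, plus strand), the gene of the endocytic adaptor CIN85, was highest in microglia-like nuclei at 504 (444 to 570) and 411 CPM (349 to 481). Oligodendrocyte-like nuclei followed at 313 and 302 CPM. Inhibitory neuron-like and dentate granule-like nuclei held 122 to 132 CPM, and CA1 pyramidal-like nuclei only 16.7 and 15.4 CPM. The microglia-like level was 30.1-fold (24.7 to 36.8) and 26.6-fold (21.2 to 33.5) that of CA1. CA3 pyramidal-like nuclei, at 68.0 and 57.5 CPM, stood well above CA1 in both libraries. Counted per nucleus, inhibitory neuron-like nuclei led with 189 and 162 Sh3kbp1 UMIs per 100 nuclei, and CA1 was still lowest with 21.5 and 17.2. Cd2ap, the related adaptor gene known from podocyte junctions, varied far less, from 261 and 253 CPM in microglia-like to 93.3 and 81.2 in CA1 pyramidal-like nuclei.

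Mtpn and Twf1 were higher in oligodendrocyte-like and microglia-like nuclei than in neurons on the CPM scale, and Twf2 in microglia-like nuclei. Mtpn, the gene of the myotrophin that holds free capping protein, was at 83.5 and 72.9 CPM in oligodendrocyte-like and 108 and 68.5 in microglia-like nuclei, against 26.9 to 42.3 and 30.6 to 41.0 CPM in neurons. Twf1, 1 of the 2 twinfilin genes, was at 36.4 and 24.5 CPM in oligodendrocyte-like nuclei, 23.9 and 39.5 in microglia-like nuclei (12 and 15 UMIs) and between 8.95 and 19.7 in neurons. Of these glial Twf1 intervals only that of heterozygote oligodendrocyte-like nuclei, 28.9 to 45.2 CPM, lay above the dentate granule-like one, 16.3 to 20.6. Counted per nucleus, the oligodendrocyte-like and microglia-like classes were lowest for both Mtpn and Twf1 in both libraries. Twf2 was highest in microglia-like nuclei at 83.7 (60.3 to 113) and 71.1 CPM (46.9 to 104), and at 13.3 to 22.5 CPM in every other class compared. In microglia-like nuclei of the heterozygote the scaled cluster 14 level was 25.2 CPM beside the 23.9 measured for Twf1 and 12.6 beside 83.7 for Twf2. In the wild type, where cluster 14 held 1 and 4 UMIs of these genes, it was 9.26 beside 39.5 and 37.0 beside 71.1. For Mtpn the scaled level was 52.2 beside 108 CPM in heterozygote and 102 beside 68.5 in wild-type microglia-like nuclei, and 42.2 beside 83.5 and 79.8 beside 72.9 in oligodendrocyte-like nuclei.

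Set against all other nuclei at 1.5-fold in both libraries, 8 of the 10 genes were higher in microglia-like nuclei (34.7% of 9885 genes tested) and the 2 CARMIL genes were lower (24.4%). In oligodendrocyte-like nuclei 4 were higher (29.6%), namely Capza2, Sh3kbp1, Mtpn and Twf1, and Carmil1 and Carmil3 were lower (25.8%). In astrocyte-like nuclei Carmil1 and Mtpn were higher (20.2%) and Sh3kbp1 lower (20.3%). In dentate granule-like nuclei Carmil1 was higher (7.83%) and none was lower (13.9%). Carmil1 and Sh3kbp1 were lower in CA1 pyramidal-like (13.2%) and in CA3 pyramidal-like nuclei (19.3%), and Capza2 in inhibitory neuron-like nuclei (12.3%). None was higher in CA1 (3.92%), CA3 (4.08%) or inhibitory neuron-like nuclei (7.25%), and none passed in the subicular class in either direction (5.29% higher, 10.0% lower). The microglia-like count of 8 of 10 stood above the share of all genes, and the oligodendrocyte-like count of 4 of 10 was near it. These calls rest on the fold alone and not on its interval. Twf1 passed narrowly in heterozygote microglia-like nuclei (1.53, 0.785 to 2.68), and Mtpn was at 1.79 (1.17 to 2.63) in those of the wild type. The part of RNA like that of cluster 14 in these calls was not tested.

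Over the 16 points made by 8 classes and 2 libraries, Capza2 and Capzb ran most closely together among the subunits (Pearson r of log2(CPM + 10) 0.96), with Capza1 at 0.92 to Capza2 and 0.93 to Capzb. Carmil3 ran against all 3 (-0.85 to -0.90). The points share libraries and the depth of their class, so these are descriptions. The microglia-like points lay far above the others for all 3 subunits and were lowest for Carmil3. Correlations without these points were not computed. Of all genes with at least 1000 UMIs, the patterns most like Capza1 were those of Eif4e2, Fam91a1 and Ythdf2 (r 0.98). Nearest to Capza2 were Psmg2, Zbtb44 and Gpbp1 (0.98, 0.98 and 0.97), and nearest to Capzb were Taok1, Gtpbp1 and Tbck (0.97 each).

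The balance of the alpha subunits differed between classes. In inhibitory neuron-like nuclei Capza1 made up 57.1% (52.6 to 61.5) of Capza1 plus Capza2 UMIs in the heterozygote and 51.2% (47.3 to 55.1) in the wild type, the highest of the 8 classes in both. Wild-type shares were 41.9% in the subicular class, 40.8% in CA3, 40.5% in CA1 and 35.4% (33.2 to 37.6) in dentate granule-like nuclei. Microglia-like nuclei had the lowest share in both libraries, 33.6% (27.9 to 39.7) and 30.8% (24.6 to 37.5). These intervals overlapped those of astrocyte-like, oligodendrocyte-like and dentate granule-like nuclei, and in the wild type that of CA3. In both libraries the intervals of inhibitory neuron-like nuclei lay above those of every other class compared except the subicular class. The subicular interval overlapped the inhibitory one in the heterozygote (50.0 to 57.5) and lay below it in the wild type (39.2 to 44.7). In cluster 14 Capza1 was 5 of 75 alpha UMIs (6.67%, 2.20 to 14.9) and 0 of 12 (up to 26.5%), below the interval of every heterozygote class. The part of RNA like that of cluster 14 in the class balances was not tested.

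The balance is one of counted tags and not of protein. Of the 50-base words in the last 500 bases of Capza1 transcripts, 39.9% recur in the pseudogenes Gm5920, Gm3608 and AC109149.1, none of which is in the count table, and Capza1 overlaps Gm42658 and Gm42659 on its own strand and St7l on the other. How reads from such stretches were assigned is not given, so the level of Capza1 is uncertain, and Twf1 shares 16.7% of its words with Gm4887. Capza2 and Capzb share none. Divided by gene length, Capza1 was 37.8% and 33.1% of the alpha total over all nuclei.

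The ratio of alpha to beta tags varied less. Over all nuclei there were 2.63 (2.52 to 2.76) alpha UMIs per Capzb UMI in the heterozygote and 2.90 (2.77 to 3.03) in the wild type. The classes ran from 2.37 in CA1 to 3.44 in CA3 pyramidal-like nuclei of the heterozygote, and from 2.59 in CA3 pyramidal-like to 3.80 in astrocyte-like nuclei of the wild type, an order the libraries did not share.

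**Figure D3:**
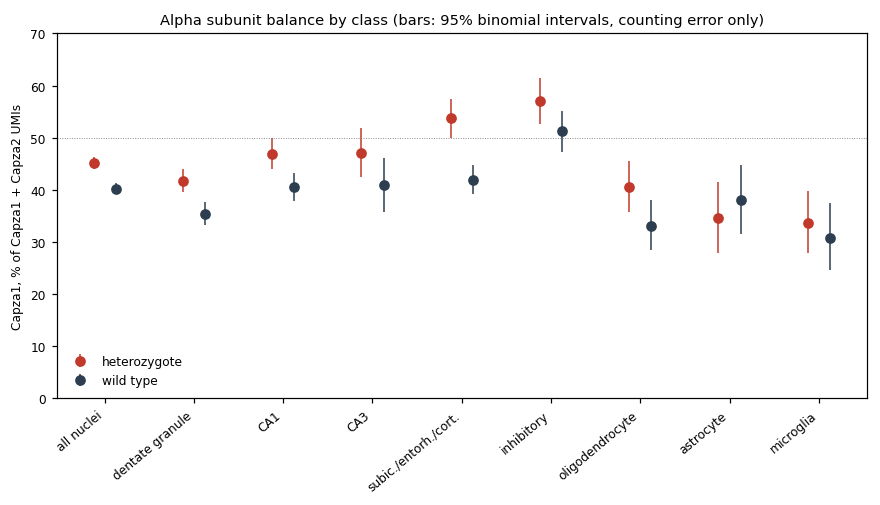
Capza1 as a percentage of Capza1 plus Capza2 UMIs over all nuclei and in the 8 classes, with exact binomial intervals at 95% (heterozygote red, wild type dark blue; dotted line at 50%). The heterozygote lies higher over all nuclei (45.2% against 40.2%) and in every class except the astrocyte-like nuclei, where it was 34.5% against 37.9%.

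Between the libraries, over all nuclei, Capza2 stood lower in the heterozygote and its partners less so. There the CPM ratio, heterozygote over wild type, was 0.785 (0.751 to 0.819) for Capza2, 0.961 (0.914 to 1.01) for Capza1 and 0.941 (0.891 to 0.994) for Capzb. A gene was counted as lower at a ratio of at most 0.8 and as higher at the inverse of 0.8 or more, among 14457 genes with at least 200 UMIs. On that rule Capza2 and Carmil3 were lower and none of the 10 was higher, where 4.51% of all genes were lower and 4.97% higher. Of all genes tested 3.64% had a ratio at or below that of Capza2. The ratio of Capza2 depends on the weighting of nuclei: it was 0.920 with every nucleus counted alike and 0.803 in nuclei thinned to 1000 UMIs, both short of the fold, and 0.737 when both libraries were given the same class makeup. The heterozygote held more oligodendrocyte-like nuclei, 16.6% against 13.1%, and more nuclei of cluster 14, 3.41% against 0.673%, both high in Capza2. Dentate granule-like nuclei were also more frequent, at 30.1% against 24.2%. The subicular class was less frequent, at 8.24% against 14.6%, as were CA1 pyramidal-like (11.5% against 14.9%) and inhibitory neuron-like nuclei (4.72% against 7.29%). The part of any of these differences in the ratios was not tested.

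Within classes Capza2 was below the wild type in 8 of 8, with the ratio at most 0.8 in 5 of them and the same 5 intervals below 1. It was 0.652 (0.571 to 0.744) in the subicular class, 45.6 against 69.9 CPM. In oligodendrocyte-like nuclei it was 0.666 (0.557 to 0.796), in dentate granule-like 0.718 (0.662 to 0.780), in CA1 pyramidal-like 0.743 (0.666 to 0.828) and in inhibitory neuron-like nuclei 0.771 (0.644 to 0.920). In astrocyte-like (0.804, 0.629 to 1.03), CA3 pyramidal-like (0.831, 0.688 to 1.01) and microglia-like nuclei (0.913, 0.728 to 1.15) the intervals held 1. Whether the ratio differs between classes was not tested. The share of all genes that were lower was 4.80% in the subicular class, 4.78% in oligodendrocyte-like, 3.74% in dentate granule-like, 6.10% in CA1 and 5.23% in inhibitory neuron-like nuclei. It was 6.56% in microglia-like nuclei, where 3 of the 10 genes reached 200 UMIs and none of those was lower.

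**Figure D4:**
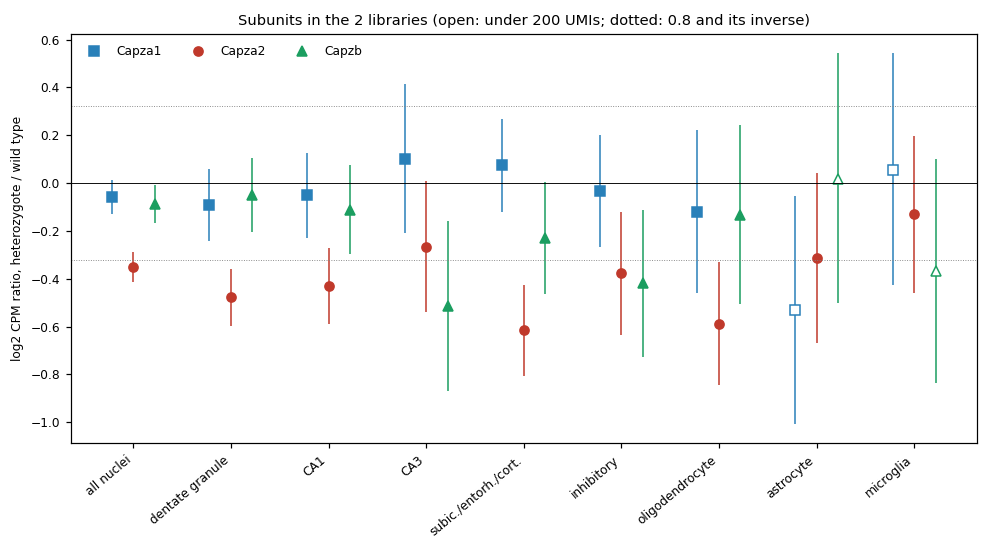
Log2 CPM ratio, heterozygote over wild type, of Capza1 (squares), Capza2 (circles) and Capzb (triangles) over all nuclei and by class, with exact conditional intervals at 95%; open symbols have under 200 UMIs and dotted lines mark ratios of 0.8 and its inverse. The Capza2 circles lie below 0 in all 8 classes, from -0.62 in the subicular class to -0.13 in microglia-like nuclei.

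Other measures differed between the libraries beside Capza2. The mitochondrial share was lower in the heterozygote in all 8 classes, for example 0.0766% against 0.134% in dentate granule-like and 0.0309% against 0.0618% in CA1 pyramidal-like nuclei. The scaled cluster 14 level of Capza2 by oligodendrocyte markers was 19.0 CPM higher in wild-type dentate granule-like nuclei, beside a Capza2 difference of 29.9 CPM, and 14.3 beside 24.3 CPM in the subicular class. In CA1 pyramidal-like nuclei it was 3.51 CPM higher beside 19.8, and in inhibitory neuron-like nuclei lower in the wild type (-12.2 CPM) beside 13.5. In oligodendrocyte-like nuclei the level by excitatory markers was lower in the wild type (-14.7 CPM) beside a Capza2 difference of 54.8. In microglia-like nuclei the sign depended on the markers, with -14.8 CPM by excitatory and 15.5 CPM by oligodendrocyte markers beside 32.9. Cluster 14 itself had a Capza2 ratio of 1.12 (0.604 to 2.28), from 70 and 12 UMIs, and without it the ratio over all nuclei was 0.774. The part of RNA from other nuclei in the Capza2 difference was not tested.

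The partner subunits did not follow Capza2 class by class. Capza1 lay between 0.920 and 1.07 in the 6 classes with at least 200 UMIs, and each of those intervals held 1. In astrocyte-like nuclei, on 69 and 85 UMIs, it was 0.693 (0.497 to 0.963), beside 0.804 for Capza2. Capzb was below 1 in its 6 such classes, and at most 0.8 in CA3 pyramidal-like (0.701, 0.548 to 0.897; 8.22% of genes lower there) and inhibitory neuron-like nuclei (0.748, 0.604 to 0.925). In CA3 this rested on 131 and 139 UMIs. Both ratios were below those of Capza2 in the same classes, 0.831 and 0.771, and so was Capzb in microglia-like nuclei, at 0.775 on 80 and 78 UMIs beside 0.913. Whether the subunits differ within a class was not tested. The ratio of Capza1 to Capza2 was 1.22 times (1.15 to 1.31) that of the wild type over all nuclei. It was 1.61 (1.33 to 1.95) in the subicular, 1.38 (1.02 to 1.87) in the oligodendrocyte-like, 1.31 (1.14 to 1.49) in the dentate granule-like and 1.30 (1.10 to 1.53) in the CA1 class. The alpha to beta ratio was 0.909 (0.853 to 0.969) times the wild-type ratio over all nuclei and 0.824 (0.727 to 0.933) in dentate granule-like nuclei. It was above 1 in CA3 pyramidal-like (1.33, 0.997 to 1.76), microglia-like (1.23, 0.842 to 1.79) and inhibitory neuron-like nuclei (1.17), with intervals that held 1.

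Of the regulators, Carmil3 was at 16.3 against 20.5 CPM over all nuclei (0.795, 0.727 to 0.868). It was at 0.776 (0.638 to 0.943) in dentate granule-like nuclei, and at 1.01 in CA1 and 0.963 in the subicular class. The ratio over all nuclei was close to the fold limit and reached 0.958 after thinning. Carmil1 was at 0.975 (0.942 to 1.01) over all nuclei and at most 0.8 only in astrocyte-like nuclei, where it was 211 against 278 CPM (0.760, 0.644 to 0.897; 6.07% of genes lower). That value became 0.905 when clusters with doublet-like scores were not set apart. Cd2ap was above 1 in 8 of 8 classes, between 1.03 and 1.15, and 1.11 (1.07 to 1.15) over all nuclei, under the fold set. Sh3kbp1 was at 1.10 (1.06 to 1.14), and at 1.23 (1.00 to 1.51) in microglia-like nuclei. Mtpn, Twf1 and Twf2 were at 1.04, 1.09 and 0.918, with intervals that held 1. Twf1 passed the fold with every nucleus counted alike (1.28) and after thinning (1.53). No gene of the 10 that reached 200 UMIs in a class was higher there, which covers 3 of the 10 in microglia-like and in astrocyte-like nuclei and 6 in oligodendrocyte-like nuclei. On fewer UMIs Twf1 was at 1.48 (1.00 to 2.23) in oligodendrocyte-like nuclei and Mtpn at 1.57 (0.966 to 2.61) in microglia-like nuclei. The share of all genes that were higher was 2.31% in CA1, 2.65% in CA3, 7.12% in astrocyte-like, 4.07% in dentate granule-like, 3.11% in inhibitory neuron-like, 7.82% in microglia-like and 7.62% in oligodendrocyte-like nuclei, and 2.66% in the subicular class.

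**Figure D5:**
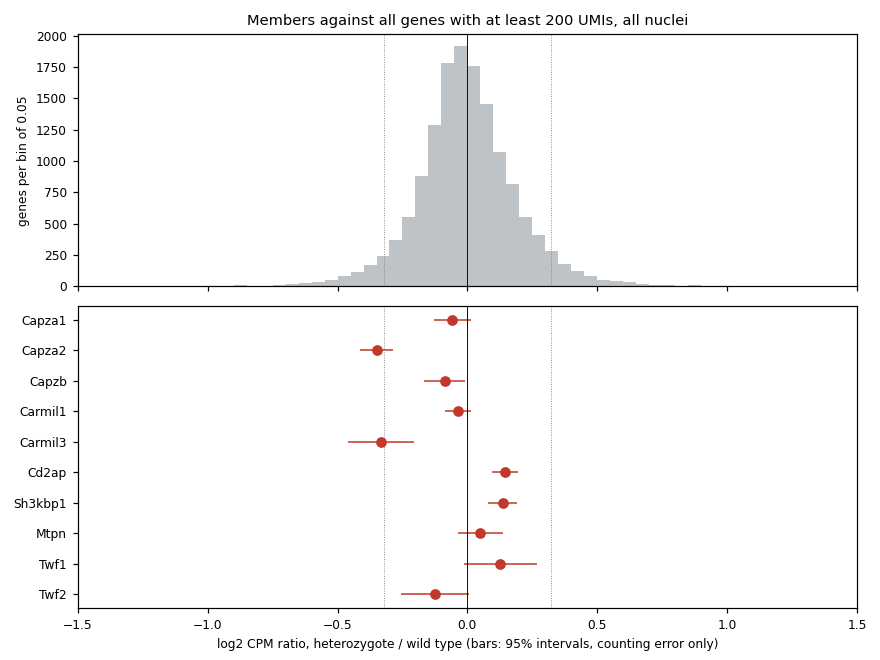
Top, the number of genes with at least 200 UMIs per bin of 0.05 in log2 CPM ratio over all nuclei; bottom, the 10 genes on the same axis with intervals at 95% and dotted lines at ratios of 0.8 and its inverse. Capza2 (-0.35) and Carmil3 (-0.33) lie beyond the lower line, and the other 8 genes lie between the lines.

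Other genes of the barbed end were read from 2 further lists. Of 11 genes, 8 had at least 200 UMIs, and 1 was past the fold over all nuclei. Gsn, the gene of the severing and capping protein gelsolin, stood at 11.7 against 8.65 CPM (1.35, 1.20 to 1.52); in oligodendrocyte-like nuclei, where it was at 175 and 148 CPM, the ratio was 1.19. The median log2 ratio of the 8 was -0.08, that of the 10 capping protein genes -0.05 and that of all genes -0.01. Enah and Evl, genes of elongating Ena/VASP proteins that compete with capping, were at 0.933 (0.912 to 0.954) and 0.913 (0.871 to 0.957). Eps8, the gene of another barbed-end capper, was at 0.883 over all nuclei and 0.758 (0.570 to 1.00) in the subicular class. Washc2, Plekho1, Carmil2 and Vasp lay between 0.920 and 1.11. No UMI of Capza3, known as the testis alpha subunit gene, was found in either library.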

How the data were processed

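Per the labels' protocols, nuclei were freed by Dounce homogenization and density centrifugation and made into 10x Genomics 3' v3 libraries. The deposited matrices hold raw UMI counts, made by the authors with Cell Ranger 7.1.0 and build mm10, as the submitters' processing notes and the file headers record. The annotation, the counting of introns and the calling of barcodes are not given in the sources used here. The libraries held 62702888 and 58701532 UMIs, and 32235 of 32285 gene identifiers were found in GENCODE M21 (GRCm38), whose coordinates are used.

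Barcodes with at least 500 genes and at most 5% mitochondrial UMIs were kept (7211 heterozygote, 6424 wild type). Scrublet scores removed 416 and 330 barcodes, at an expected 0.8% per 1000. Counts were scaled to 10000 per nucleus, log-transformed and clustered on 2000 variable genes, 30 components, 15 neighbours and Leiden resolution 1 (scanpy 1.11.5 with leidenalg 0.10.2; intervals from scipy 1.17.1 under numpy 2.4.6 and Python 3.11.15). The variable genes left out the listed actin genes, as well as sex-linked markers and mitochondrial and ribosomal protein genes. Of 27 clusters, each was named by the marker list with the top mean log2 ratio (at least 1, with 3 markers detected), then excitatory clusters took a region (at least 0.5). This scoring was set after seeing the data. Clusters with doublet scores 2 times the mean and deeper nuclei were set apart as mixed (255 and 211 nuclei).

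UMIs were summed per library and class. CPM carry exact Poisson intervals, shares Clopper-Pearson intervals and ratios exact conditional binomial intervals. The ratio and its interval were checked on simulated counts. No test between genotypes was possible. Gene lists and members were chosen with earlier results of these data known. All 10 members are named, the genes of 2 further lists where they held at least 200 UMIs, and the 3 genes nearest in pattern to each subunit. Alternatives covered doublets, depth, thinning, weighting, scaling and clustering.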

Additional observations from a re-analysis of the deposited data

How the results depend on the processing

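No paired analysis was possible because each genotype has 1 library. Capza2 was below the wild type in 96 of 97 values over all classes and settings. The values are repeated calculations on the same 2 libraries, and some settings, such as the floor of 50 UMIs, cannot change a ratio. Their number therefore adds no replication. The exception was 1.10 in CA3 pyramidal-like nuclei thinned to 1000 UMIs, from medians of 16834 and 13388. Thinning discards most UMIs of such deep nuclei, so values after it rest on far fewer counts. Over all nuclei the Capza2 ratio was 0.737 with the class makeup of both libraries pooled and 0.920 with every nucleus weighted alike. Thinning left out 292 heterozygote and 106 wild-type nuclei, gave 1.06 for Capza1 over all nuclei, and moved its share of alpha UMIs to 41.5% and 35.0%. In the largest cluster of each class that share was 43.2% in the heterozygote, and per kilobase of gene it was 37.8% and 33.1%. The number of genes past the fold over all nuclei was 1 in place of 2 with doublets kept, with at least 1000 genes per nucleus and with the makeup pooled, where Carmil3 fell short (0.802, 0.805 and 0.834), and 1 after thinning, where it was Twf1 (1.53). Pairs of gene and class past the fold numbered 9, all on the lower side. They were 5 of Capza2, 2 of Capzb and 1 each of Carmil1 and Carmil3. Listed genes over the main floor numbered 10 in the dentate granule-like, CA1 and subicular classes, 8 in inhibitory neuron-like and 7 in CA3. They numbered 6 in oligodendrocyte-like and 3 each in astrocyte-like and microglia-like nuclei. Of all genes, 3.74% to 8.22% by class were lower and 2.31% to 7.82% higher. The pairs past the fold numbered 25 after thinning and 16 with a floor of 50 UMIs. The floor of 50 UMIs admits pairs with fewer counts than the main floor does, and thinned values rest on fewer counts. The share of all genes past the fold is not given for either setting. The counts of 25 and 16 therefore cannot be read as more difference between the libraries. What else moved these counts was not tested. CPM without mitochondrial, hemoglobin and Ttr UMIs, centring on the median gene and leaving out cluster 14 (added after seeing the data) moved no value beyond its interval. Counts of the subunits are few in microglia-like and astrocyte-like nuclei, which limits the precision of their ratios.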

Other observations

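Nuclei outside the 8 classes held the subunits at the following levels. Oligodendrocyte precursor-like nuclei (197 in each library) had Capza2 at 82.3 and 90.3 CPM, and Capza1 made up 42.9% and 49.4% of their alpha UMIs. Choroid plexus epithelium-like nuclei (62 and 27) had Capza2 UMIs numbering 36 and 19, and Cajal-Retzius-like nuclei (37 and 30) had 7 and 9. Cluster 8, excitatory nuclei with markers of both CA2 and hilar mossy cells (179 and 256), had Capza2 at 59.3 and 76.1 CPM, a ratio of 0.779 (0.658 to 0.921), and 2.06 and 2.60 alpha UMIs per Capzb UMI. Cluster 19, led by fibroblast and mural genes with no name given (71 and 50), had 18 and 24 Capza2 UMIs.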
